A study of Mus musculus with 24 samples.

Results

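Genes of the interferon response and of MHC class I antigen processing were followed in the epithelial fraction of mouse lung organoids grown with nylon microfibers. The group holds 39 genes, named by their role and chosen with earlier results of these data known, out of 14557 gene symbols with counts in the epithelial libraries. Each gene was read from a single listed transcript, the one with the most counts on average in the 12 epithelial libraries. All 39 genes had such a transcript, and all 39 were among the 13759 genes that passed the filter on low counts and were tested. By role they comprise 16 antiviral effectors, 3 cytosolic RNA sensors, 5 modifiers of interferon signalling, 4 transcription factors of the pathway, 3 guanylate-binding proteins and 8 genes of class I antigen processing.

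The organoids combined primary lung cells carrying EpCAM, a surface protein of epithelial cells, from female wild-type C57BL6 mice with CCL206, a lung fibroblast line that comes from a male ddY mouse. Each well of a 6-well plate held 200000 cells of either kind in Matrigel, and nylon 6,6 fibers of 12 by 31 micrometers were added at 0 (control), 12000 or 30000 per well. After 7 days the cells were divided with EpCAM magnetic beads into an epithelial and a fibroblast fraction. RNA was sequenced from 4 mice, each an independent isolation, at each fiber number. The results below concern the 12 epithelial libraries, with mouse 1 to 4 in controls, at 12000 fibers and at 30000 fibers. The identifiers could not be tied to the 12 fibroblast libraries, which were not analysed here. Every epithelial library, controls included, came from cells cultured with the fibroblast line, and a bead separation can leave fibroblasts and other cells in the epithelial fraction.

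Interferons are secreted proteins that bind receptors on nearby cells, where Janus kinases phosphorylate STAT proteins. Complexes that hold STAT2 and IRF9 bind the interferon-stimulated response element (ISRE) of promoters, and STAT dimers formed after interferon gamma bind the interferon-gamma activated site (GAS). The induced genes include effectors that block steps of viral replication, RNA sensors that feed back into interferon production, and the machinery that loads peptides onto MHC class I molecules for display to CD8+ T cells. In that machinery the immunoproteasome subunits Psmb8 and Psmb9 cut proteins into peptides, Tap1 and Tap2 carry the peptides into the endoplasmic reticulum, Tapbp (tapasin) holds the transporter and the class I molecule together, and B2m is the light chain shared by the class I heavy chains H2-K1 and H2-D1. Airway and alveolar epithelium expresses class I at rest and is a main site of antiviral interferon responses in the lung.

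The 30000-fiber libraries stood apart from the other 8 in depth and in RNA composition. Transcript counts summed to between 21222034 and 28232472 per library in controls, between 20103389 and 31119155 at 12000 fibers and between 6767842 and 9234052 at 30000 fibers. Mitochondrial genes took 5.20 to 7.77% of the counts of the chosen transcripts in controls, 5.33 to 6.91% with 12000 fibers per well and 14.3 to 16.3% with 30000. A log2 index over 8173 genes, which is higher where isoforms near the 3′ end of a gene hold more of its counts, was 0.345 to 0.423 at 30000 fibers. The index lay between -0.0249 and 0.0082 in the other 8 libraries. Tested genes were split into 10 classes of equal size by transcript length. In the shortest class, 57 to 1272 bases, the median log2 fold change of 30000 fibers against control was 0.89, and in the longest class -0.23. At 12000 fibers the same medians were 0.06 and -0.01. An effect of 30000 fibers therefore cannot be told apart from these differences between libraries, and the comparison at 12000 fibers is given first.

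The promoters of 6 members are shown because each holds the core letters of the ISRE, which most members with a promoter sequence lacked. Sequences come from RefSeq (build GRCm38.p6), whose table held 32 of the 39 members and 27025 genes in all. A window of 250 bases before each gene's start was searched on both strands for an ISRE core, GAAA followed after any 2 bases (NN) by a second GAAA, which reads TTTC, NN, TTTC on the other strand. The GAS core searched was TTC, any 3 bases (NNN) and GAA, which reads the same on both strands. The ISRE core was found in 11 of 32 members (34.4%) and in 936 of 27025 genes (3.46%). The GAS core was found in 7 of 32 members (21.9%) and in 2197 of 27025 genes (8.13%). By role, the ISRE core was present in 6 of 14 antiviral effectors (Isg15, Ifit1, Ifit3, Oas1a, Rsad2 and Bst2), in all 3 guanylate-binding proteins, in 1 of 4 transcription factors (Stat2) and in 1 of 7 class I genes (B2m). A match describes these letters only; it is not a measured binding site.

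Isg15, Ifit1 and Oas1a are shown as effectors whose levels were lower with fibers in at least 1 comparison, Bst2 as an effector that was higher at 12000 fibers, Gbp3 as a guanylate-binding protein, and B2m as the class I gene with the largest rise of the 8. Each window is written 5′ to 3′ in the direction of transcription, ends at the base before the annotated start, and has every base of an ISRE core in capitals.
Isg15, chr4:156200819-156201068, minus strand: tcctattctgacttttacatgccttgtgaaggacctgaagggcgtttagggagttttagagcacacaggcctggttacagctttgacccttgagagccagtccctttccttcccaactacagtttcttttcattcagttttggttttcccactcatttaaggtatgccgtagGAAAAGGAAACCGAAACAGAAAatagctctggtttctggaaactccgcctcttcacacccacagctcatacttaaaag
Ifit1, chr19:34640639-34640888, plus strand: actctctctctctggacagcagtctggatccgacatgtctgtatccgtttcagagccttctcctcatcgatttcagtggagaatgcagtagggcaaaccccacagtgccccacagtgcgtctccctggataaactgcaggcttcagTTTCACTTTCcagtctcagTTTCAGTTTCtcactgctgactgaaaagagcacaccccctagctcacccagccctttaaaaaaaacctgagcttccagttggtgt
Oas1a, chr5:120907526-120907775, minus strand: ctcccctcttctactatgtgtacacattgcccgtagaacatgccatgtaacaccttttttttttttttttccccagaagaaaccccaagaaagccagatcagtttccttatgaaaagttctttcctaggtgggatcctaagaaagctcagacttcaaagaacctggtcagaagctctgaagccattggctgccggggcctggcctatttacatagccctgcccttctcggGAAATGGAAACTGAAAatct
Bst2, chr8:71537473-71537722, minus strand: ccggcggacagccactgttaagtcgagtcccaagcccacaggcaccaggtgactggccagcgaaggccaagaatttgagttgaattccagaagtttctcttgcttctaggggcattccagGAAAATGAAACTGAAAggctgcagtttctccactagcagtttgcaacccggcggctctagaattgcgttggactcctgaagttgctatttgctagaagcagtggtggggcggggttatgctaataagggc
Gbp3, chr3:142559794-142560043, plus strand: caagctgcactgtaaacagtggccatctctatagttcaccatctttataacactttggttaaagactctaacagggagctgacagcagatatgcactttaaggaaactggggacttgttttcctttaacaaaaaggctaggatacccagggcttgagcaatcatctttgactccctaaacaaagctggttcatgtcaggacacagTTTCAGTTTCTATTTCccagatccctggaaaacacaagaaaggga
B2m, chr2:122147437-122147686, plus strand: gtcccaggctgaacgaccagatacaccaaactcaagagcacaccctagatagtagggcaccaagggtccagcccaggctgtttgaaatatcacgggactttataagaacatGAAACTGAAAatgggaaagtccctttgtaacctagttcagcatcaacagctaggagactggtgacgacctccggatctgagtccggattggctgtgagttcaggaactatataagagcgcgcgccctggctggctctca

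In these windows the cores overlapped one another in 4 of the 6 genes. Isg15 held 3 overlapping cores that began 78, 72 and 66 bases before the start, Bst2 held a pair at 130 and 124 bases, Oas1a a pair at 20 and 14 bases and Gbp3 a pair at 45 and 39 bases. The cores of Ifit1 lay apart, at 104 and 85 bases, and B2m had a single core at 139 bases. Bst2 and Oas1a also held a GAS core, at 136 and 98 bases. At 12000 fibers Ifit1, Oas1a and Gbp3 fell, Bst2 and B2m rose and Isg15 did not pass, as the values below show. These genes were picked in part by their direction, so that mix is not a result about the core. Of the other members with the core, Gbp2 was called lower at 12000 fibers, and Ifit3, Rsad2, Gbp7 and Stat2 did not pass. The Tap1 and Psmb9 windows overlap, because the 2 genes start close together on opposite strands of chromosome 17.

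With 12000 fibers, 6 of the 39 genes rose and 12 fell, while 21 did not pass an adjusted p of 0.05 (edgeR quasi-likelihood F test, Benjamini-Hochberg over all genes tested). Among all genes 38% passed in either direction. Those 15.4% higher and 30.8% lower stand beside 18.7% higher and 19.3% lower among the 13759 genes tested. The median log2 fold change was -0.19 over the 39 genes and -0.003 over all genes. In the parentheses below, log2 stands for the log2 fold change, given ± its SE. Class I genes and antiviral effectors gave opposite balances of rises and falls, a difference between lists that was not tested. Of 8 class I genes, 4 rose and none fell (0 lower in DESeq2 too, and none at an unadjusted p of 0.05), with a median of 0.27 and all 8 log2 fold changes above 0. Of 16 antiviral effectors, 2 rose and 5 fell, with a median of -0.20. The ranges of the 4 libraries did not overlap between 12000 fibers and control for 9 of 39 genes, 3 above and 6 below, where 17.6% of all genes lay above and 18.7% below. Single libraries weighed on these counts: 7 members were called lower without mouse 3 at 12000 fibers. The antiviral effectors called lower numbered 3 without control mouse 1, 3 or 4 or without mouse 2 or 3 at 12000 fibers, and those called higher numbered 1 without control mouse 1 or 2 or without mouse 1 at 12000 fibers. The lists were chosen with results of these data known and have no test of their own.

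**Figure D1:**
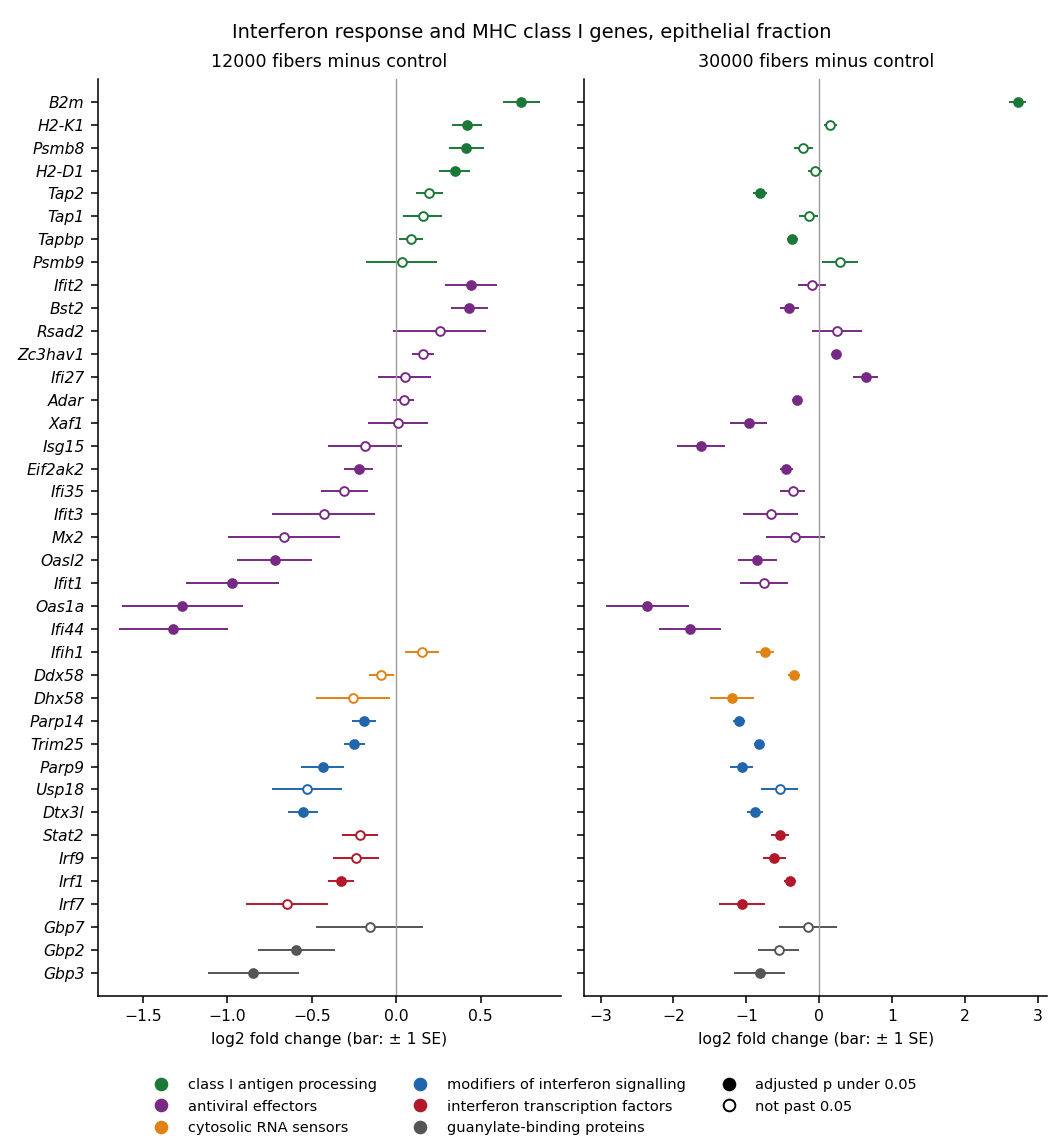
Log2 fold changes of the 39 genes for 12000 fibers minus control (left) and 30000 fibers minus control (right), grouped by role; points are edgeR estimates, bars ± 1 SE, and filled points passed an adjusted p of 0.05. At 12000 fibers all 8 class I genes lie above 0, with B2m at 0.74, while Ifi44 at -1.32 lies lowest; the 2 panels have different x axes.

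B2m, the light chain without which class I molecules do not reach the cell surface, had 235, 248, 354 and 270 CPM in controls (mice 1 to 4), 530, 436, 466 and 418 CPM at 12000 fibers and 1874, 1874, 1907 and 1666 CPM at 30000 fibers. All 4 libraries at 12000 fibers lay above all 4 controls, and all 4 at 30000 fibers lay above all 8 others. At 12000 fibers B2m rose (log2 0.74 ± 0.11, adjusted p = 5.47e-05), a mean of 462 ± 49.3 against 277 ± 53.3 CPM in controls (SD, n = 4 each). CPM are counts per 1000000 counts of the normalized library total. The B2m gene is overlapped over all of its 5398 bases by Patl2 on the opposite strand, and 16 of the 39 members share bases with some annotated gene on the other strand. No source used here states how strand was treated in the counting. The log2 fold change of B2m lay between 0.67 and 0.88 when any 1 of the 12 libraries was left out.

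The heavy chains H2-K1 and H2-D1 present peptides at the cell surface, and both rose at 12000 fibers. H2-K1 had 339, 346, 441 and 366 CPM in controls, 547, 530, 482 and 439 CPM at 12000 fibers and 442, 362, 435 and 416 CPM at 30000 fibers. At 12000 fibers it rose (log2 0.42 ± 0.09, adjusted p = 0.00098) and was higher in 4 of 4 same-mouse pairs, although the 2 groups' ranges overlapped because control mouse 3 was high. H2-D1 had 344, 342, 461 and 381 CPM in controls, 551, 485, 483 and 422 CPM at 12000 fibers and 381, 351, 376 and 360 CPM at 30000 fibers. It rose as well (log2 0.35 ± 0.09, adjusted p = 0.00522), again in 4 of 4 pairs and with overlapping ranges. H2-K1 and H2-D1 are close relatives whose reads may be split between them and other class I loci, which the counting could affect and which was not tested.

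Psmb8, a catalytic subunit of the immunoproteasome, had 16.9, 14.8, 17.3 and 16.6 CPM in controls, 23.5, 21.8, 20.1 and 21.7 CPM at 12000 fibers and 15.3, 10.6, 14.7 and 15.7 CPM at 30000 fibers. The 12000-fiber libraries all lay above the controls (log2 0.42 ± 0.10, adjusted p = 0.00369). Its partner subunit Psmb9 had 5.79, 3.50, 6.78 and 6.58 CPM in controls, 6.10, 6.66, 4.18 and 5.89 CPM at 12000 fibers and 7.44, 5.29, 8.83 and 5.68 CPM at 30000 fibers. The groups overlapped and it did not pass (log2 0.03 ± 0.21, adjusted p = 0.925). Tap1, a chain of the peptide transporter, had 24.3, 27.2, 34.4 and 32.6 CPM in controls, 39.1, 31.3, 31 and 29.9 CPM at 12000 fibers and 32.5, 25, 24.7 and 25.4 CPM at 30000 fibers. At 12000 fibers it did not pass (log2 0.16 ± 0.11, adjusted p = 0.301). Tap2, its other chain, had 47.8, 52.9, 55.2 and 49.6 CPM in controls, 57.4, 64.9, 59 and 54.3 CPM at 12000 fibers and 31.3, 25.4, 26.8 and 33.7 CPM at 30000 fibers. It was higher in 4 of 4 pairs but not past the threshold (log2 0.20 ± 0.08, adjusted p = 0.0609), and it passed without control mouse 3, without mouse 4 at 12000 fibers or without mouse 2 or 4 at 30000 fibers, with adjusted p of 0.0385 to 0.0492, and in a fit of only these 2 groups (0.0412). Tapbp had 210, 221, 213 and 222 CPM in controls, 255, 244, 205 and 216 CPM at 12000 fibers and 174, 176, 147 and 175 CPM at 30000 fibers. At 12000 fibers 2 libraries lay within the control range or below it, and it did not pass (log2 0.09 ± 0.07, adjusted p = 0.372). Psmb9 and Tap1 share 212 bases of annotation on opposite strands, and without a stated strand setting reads from that stretch cannot be told apart.

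**Figure D2:**
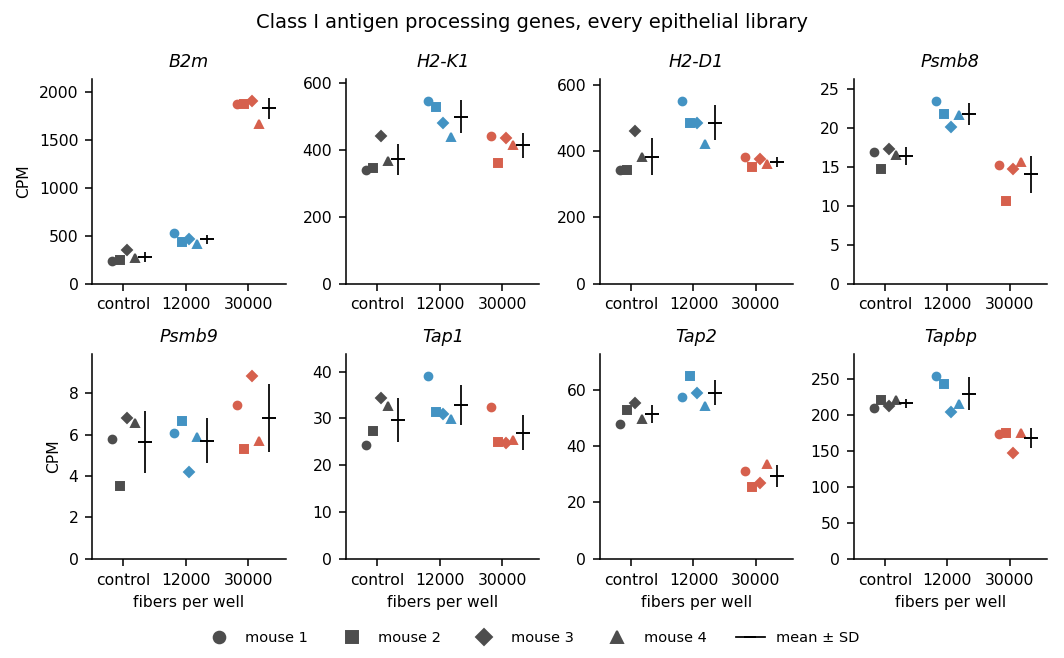
CPM of the 8 class I genes in each epithelial library by fibers per well; symbols mark the mouse, and the black mark and bar give mean ± SD of 4 libraries. B2m lies at 1666 to 1907 CPM at 30000 fibers, above every other library, while Tap2 and Tapbp lie below the controls there.

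Fibroblast markers were also higher at 12000 fibers. All 14 tested fibroblast markers (of 16 listed, such as the collagens Col1a1 and Col1a2) were called higher at 12000 fibers, beside 18.7% of all genes. Their median log2 fold change was 1.03. At 30000 fibers 13 of 14 were called higher (92.9%, beside 32.2% of all genes). The level summed over the 15 fibroblast markers with a row was 15491 to 16899 CPM at 12000 fibers and 8587 to 13394 CPM in controls. Fn1 made up most of this sum, with means of 13211 CPM at 12000 fibers and 9131 CPM in controls. Control mouse 3 had the highest fibroblast sum of the controls and also their highest B2m, H2-K1 and H2-D1. At 12000 fibers mouse 3 again had the highest fibroblast sum, and mouse 1 had the highest B2m, H2-K1 and H2-D1. A relation between these levels was not tested. Of 10 epithelial markers 6 were called lower and 2 higher at 12000 fibers (60% and 20%, beside 19.3% and 18.7% of all genes). Their sums were 6748 to 7558 CPM at 12000 fibers and 6589 to 7636 CPM in controls. Epithelial and fibroblast markers were thus both present in the fraction. Of 12 immune markers listed, only 5 had a row, and all 5 were tested. At 12000 fibers 1 rose and 1 fell (20% each, beside 18.7% higher and 19.3% lower among all genes). The 5 summed to 205 to 318 CPM at 12000 fibers and 194 to 268 CPM in controls. Lyz2 was the highest of these at 12000 fibers (mean 192 CPM), and which cells carried it was not tested. Cd79a, a B cell gene and the lowest of the 5, lay between 0 and 2.34 CPM. The listed immune markers without a row were Ptprc, Adgre1, Itgam, Laptm5, Tyrobp, Cd3e and Marco. The 3 endothelial markers with a row summed to 3.90 to 5.34 CPM in all 12 libraries. What share of the class I change these cells carry was not tested, and in bulk RNA fewer cells of a type and less RNA per cell cannot be told apart.

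Among the antiviral effectors, Ifi44 and Oas1a both fell at 12000 fibers. Ifi44, an interferon-induced protein of uncertain biochemical role, had 21.1, 7.30, 19.4 and 15.6 CPM in controls, 7.98, 3.73, 5.30 and 7.64 CPM at 12000 fibers and 4.70, 2.82, 4.12 and 6.68 CPM at 30000 fibers. Control mouse 2 lay within the 12000-fiber range, and the other 3 controls lay above it (log2 -1.32 ± 0.32, adjusted p = 0.00649). Oas1a, one of the enzymes that make oligoadenylate in response to double-stranded RNA, had 4.17, 2.43, 3.39 and 2.63 CPM in controls, 2.42, 0.533, 0.837 and 0.938 CPM at 12000 fibers and 0.784, 0, 0.883 and 0.668 CPM at 30000 fibers. The 12000-fiber libraries all lay below the controls (log2 -1.27 ± 0.36, adjusted p = 0.00842). Without mouse 1 at 12000 fibers the log2 value was -2.00. It rests on few reads, 113 counts over the controls, 44 at 12000 fibers and 7 at 30000 fibers, and its close paralogs may share them; the count of 0 in mouse 2 at 30000 fibers allows up to 1.06 CPM (3 counts, counting error only).

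Oasl2, a relative of that enzyme family, had 35.5, 19.1, 34.9 and 31.7 CPM in controls, 24.3, 12.5, 17 and 18.4 CPM at 12000 fibers and 16.5, 12.3, 16.5 and 21.4 CPM at 30000 fibers. It fell at 12000 fibers in 4 of 4 pairs (log2 -0.72 ± 0.22, adjusted p = 0.0229). That call was lost without control mouse 1, 3 or 4 or without mouse 2 or 3 at 12000 fibers, with adjusted p of 0.0502 to 0.0733. Ifit1, which binds viral RNA with foreign 5′ ends, had 16.6, 8.37, 12.6 and 14.6 CPM in controls, 10.6, 5.46, 5.44 and 4.02 CPM at 12000 fibers and 10.2, 6.70, 5.30 and 9.02 CPM at 30000 fibers. It fell at 12000 fibers (log2 -0.97 ± 0.28, adjusted p = 0.0132) in 4 of 4 pairs, with overlapping ranges. Eif2ak2 (PKR), the kinase that halts translation on sensing double-stranded RNA, had 99.2, 74.8, 89.2 and 89.7 CPM in controls, 73.1, 72.3, 74.6 and 82.4 CPM at 12000 fibers and 58.4, 66, 59.5 and 74.2 CPM at 30000 fibers. At 12000 fibers it was lower in 4 of 4 pairs (log2 -0.22 ± 0.08, adjusted p = 0.0413). This call was lost without any of control mice 1, 3 and 4 or of mice 1, 2 and 3 at 12000 fibers, with adjusted p of 0.0645 to 0.137, and also with DESeq2, with summed transcripts or in a fit of only these 2 groups (0.0537 to 0.106).

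The effectors that rose at 12000 fibers were Bst2 and Ifit2. Bst2 (tetherin), a membrane protein that holds budding virus particles on the cell, had 31.9, 29.2, 37.3 and 32.3 CPM in controls, 54.4, 40.9, 41.1 and 38.3 CPM at 12000 fibers and 24.7, 19.8, 26.5 and 26.7 CPM at 30000 fibers. Its 12000-fiber libraries all lay above the controls (log2 0.43 ± 0.11, adjusted p = 0.00384). Ifit2, a relative of Ifit1 in the same cluster on chromosome 19, had 9.49, 10.5, 10.2 and 15.5 CPM in controls, 19.3, 14.9, 13 and 14.6 CPM at 12000 fibers and 8.62, 12.7, 10.3 and 11 CPM at 30000 fibers. It rose at 12000 fibers (log2 0.44 ± 0.16, adjusted p = 0.0304), in 3 of 4 pairs. Its call was lost without control mouse 1, 2 or 3 or without mouse 1 at 12000 fibers, with adjusted p of 0.064 to 0.169, and with summed transcripts (adjusted p = 0.0838). Isg15, the ubiquitin-like modifier attached to proteins after interferon, had 8.80, 6.52, 7.95 and 6.17 CPM in controls, 9.15, 5.33, 5.16 and 5.49 CPM at 12000 fibers and 1.96, 0.706, 2.94 and 3.67 CPM at 30000 fibers. At 12000 fibers it did not pass (log2 -0.19 ± 0.22, adjusted p = 0.544): mouse 1 was above every control and the other 3 below every control.

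The other 8 effectors did not pass at 12000 fibers, with log2 fold changes between -0.67 for Mx2, an antiviral GTPase annotated as a polymorphic pseudogene, and 0.26 for Rsad2 (viperin). Adar, the RNA editing enzyme that marks self RNA, had 94.1, 90.4, 86 and 83.1 CPM in controls, 99, 87.5, 89 and 89 CPM at 12000 fibers and 73.3, 70.9, 70.9 and 71.8 CPM at 30000 fibers. Its 12000-fiber and control ranges overlapped (log2 0.05 ± 0.06, adjusted p = 0.599). Zc3hav1, a zinc finger protein that binds viral RNA, was higher in 4 of 4 pairs without passing (log2 0.16 ± 0.06, adjusted p = 0.053). Some of these calls turned on 1 library. Without mouse 1 at 12000 fibers, Ifit3 (log2 -0.84, adjusted p = 0.0175) and Ifi35 (log2 -0.44, adjusted p = 0.0276) passed as lower. Mx2 passed as lower without control mouse 2 or mouse 1 at 12000 fibers, with adjusted p of 0.0435 to 0.0481. Zc3hav1 passed as higher without control mouse 3, mouse 2 at 12000 fibers or mouse 2 at 30000 fibers, with adjusted p of 0.0165 to 0.0466, and with DESeq2, in a fit of only these 2 groups or without mitochondrial genes (0.0447 to 0.049).

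**Figure D3:**
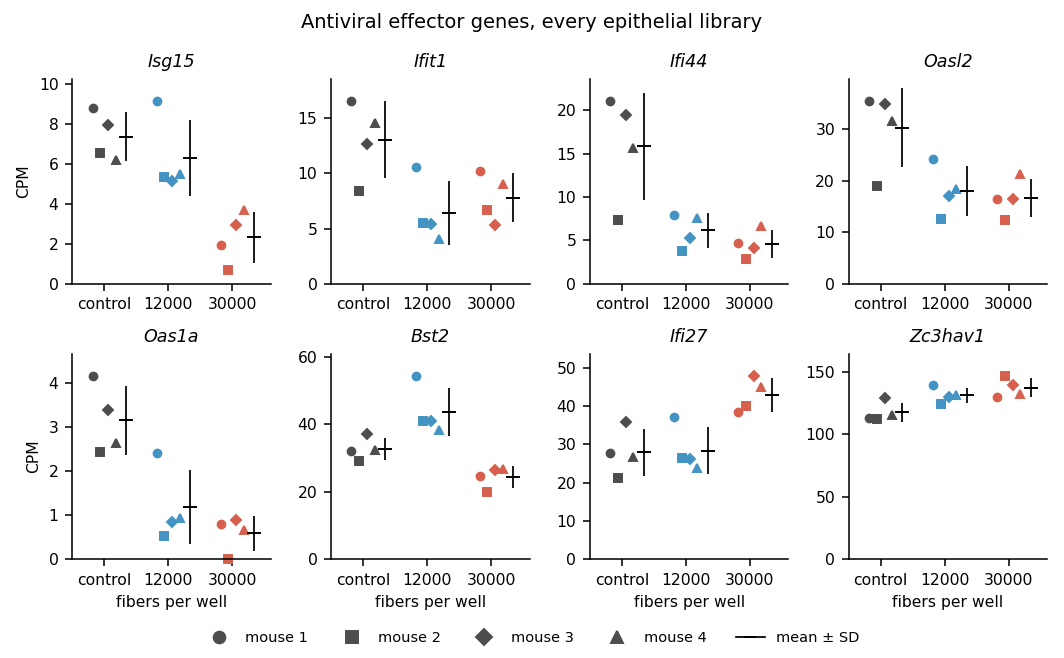
CPM of 8 antiviral effectors in each epithelial library by fibers per well; symbols mark the mouse, and the black mark and bar give mean ± SD of 4 libraries. Isg15 lies between 0.706 and 3.67 CPM at 30000 fibers, below the other 8 libraries, while Bst2 is highest at 12000 fibers, 38.3 to 54.4 CPM.

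None of the 3 cytosolic RNA sensors passed at 12000 fibers in edgeR's test, where 38% of all genes passed. Of the 3, Ddx58 and Ifih1 signal through MAVS to start interferon production. Ddx58 (RIG-I) had 68.1, 62.9, 70.0 and 74.7 CPM in controls, 70.7, 62.5, 61.2 and 64.3 CPM at 12000 fibers and 59.2, 57.1, 50.0 and 50.4 CPM at 30000 fibers, with overlap between 12000 fibers and control (log2 -0.09 ± 0.07, adjusted p = 0.374). Ifih1 (MDA5), the sensor of long double-stranded RNA, had 48.6, 39.2, 50.6 and 48.3 CPM in controls, 50.5, 56.1, 50.8 and 50.0 CPM at 12000 fibers and 32.1, 19.8, 27.1 and 32.7 CPM at 30000 fibers. It was higher in 4 of 4 pairs at 12000 fibers (log2 0.15 ± 0.10, adjusted p = 0.247). Dhx58 (LGP2), a regulator of the other two, had 8.22, 6.23, 7.56 and 9.81 CPM in controls, 7.17, 6.26, 5.86 and 7.23 CPM at 12000 fibers and 3.53, 1.06, 6.48 and 2.34 CPM at 30000 fibers. The 12000-fiber libraries overlapped the controls (log2 -0.25 ± 0.22, adjusted p = 0.385). The unadjusted p of these 3 genes were 0.245, 0.143 and 0.255, and DESeq2 called 0 of them.

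Of the 5 modifiers, 4 fell at 12000 fibers (80%, beside 19.3% of all genes tested). Dtx3l and Parp9 encode partners, a ubiquitin ligase and a macrodomain protein, that act together on interferon signalling. Dtx3l had 76.9, 57.3, 61.6 and 67.8 CPM in controls, 43.4, 44.4, 43.5 and 48.5 CPM at 12000 fibers and 40.4, 29.6, 37.1 and 36.1 CPM at 30000 fibers. All 4 libraries at 12000 fibers lay below all 4 controls (log2 -0.55 ± 0.09, adjusted p = 7.72e-05). Parp9 had 52.8, 38.1, 43.8 and 48.8 CPM in controls, 34.3, 36.9, 33.3 and 30.9 CPM at 12000 fibers and 26.2, 12.7, 24.7 and 23.7 CPM at 30000 fibers. Its groups did not overlap either (log2 -0.44 ± 0.13, adjusted p = 0.0125), and the call was lost with summed transcripts (log2 -0.43, adjusted p = 0.071). The 2 genes share 682 bases of annotation on opposite strands, so reads there cannot be told apart. Trim25, the ubiquitin ligase known for activating RIG-I, had 109, 96.5, 106 and 108 CPM in controls, 92.1, 81.8, 84.5 and 94 CPM at 12000 fibers and 58.4, 61, 59.5 and 57.1 CPM at 30000 fibers. It fell at 12000 fibers without overlap (log2 -0.25 ± 0.06, adjusted p = 0.00422). Parp14, a poly-ADP-ribose polymerase family member, fell by less (log2 -0.19 ± 0.07, adjusted p = 0.0391), and its call was lost without control mouse 1, 3 or 4 or without mouse 2 or 3 at 12000 fibers, with adjusted p of 0.0729 to 0.128, and also with DESeq2, with summed transcripts or in a fit of only these 2 groups (0.0589 to 0.15). Usp18, which removes Isg15 from proteins and dampens the type I receptor, did not pass (log2 -0.53 ± 0.21, adjusted p = 0.0532); with the mouse as a block it fell (log2 -0.54, adjusted p = 0.0165). Without the block it was called lower without control mouse 2, mouse 1 at 12000 fibers or mouse 4 at 30000 fibers, with adjusted p of 0.00995 to 0.0404.

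Of the 4 transcription factors of the pathway, 1 fell at 12000 fibers (25%, near the 19.3% of all genes tested that were called lower). Irf1, which is induced by interferon gamma and drives class I genes, had 68.2, 63.2, 65.3 and 78.5 CPM in controls, 55.2, 54.9, 51 and 58 CPM at 12000 fibers and 50.5, 52.9, 48 and 57.1 CPM at 30000 fibers. The 12000-fiber libraries all lay below the controls (log2 -0.33 ± 0.08, adjusted p = 0.002), a call lost with the transcript at the 3′ end (log2 -0.25, adjusted p = 0.076). Irf7, the factor that amplifies type I interferon production, had 18.8, 12, 18.8 and 19.6 CPM in controls, 14.7, 6.39, 9.34 and 12.7 CPM at 12000 fibers and 9.79, 4.59, 6.77 and 12 CPM at 30000 fibers. Without a block it did not pass at 12000 fibers (log2 -0.65 ± 0.25, adjusted p = 0.0534), but it fell with the mouse as a block (log2 -0.69, adjusted p = 0.000395). It also passed as lower with DESeq2 and with the transcript at the 3′ end, at an adjusted p of up to 0.0447. Stat2 had 42.6, 35.3, 45.9 and 49.3 CPM in controls, 38.7, 32.5, 37.1 and 40.3 CPM at 12000 fibers and 31.3, 27.9, 24.4 and 36.1 CPM at 30000 fibers. It too did not pass (log2 -0.22 ± 0.11, adjusted p = 0.122) and fell when the block was used (log2 -0.21, adjusted p = 0.0486). Irf9, its DNA-binding partner, had 44.7, 32.1, 33.7 and 38.4 CPM in controls, 33.7, 30.2, 30.7 and 31.5 CPM at 12000 fibers and 16.8, 19.4, 25.6 and 34.4 CPM at 30000 fibers. At 12000 fibers it did not pass (log2 -0.24 ± 0.14, adjusted p = 0.191). Without the block, Irf7 was called lower without control mouse 2, mouse 1 at 12000 fibers, or mouse 2 or 4 at 30000 fibers, with adjusted p of 0.0156 to 0.0469, and Stat2 without control mouse 2 (adjusted p = 0.0244).

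Guanylate-binding proteins are GTPases that attack vacuoles of intracellular pathogens. Gbp3 had 3.94, 2.72, 3.39 and 3.24 CPM in controls, 2.69, 1.20, 1.53 and 1.61 CPM at 12000 fibers and 0.784, 2.82, 1.47 and 2.34 CPM at 30000 fibers. Its 12000-fiber libraries all lay below the controls (log2 -0.85 ± 0.27, adjusted p = 0.0181); the call was lost without mouse 2 or 3 at 12000 fibers, with adjusted p of 0.0504 to 0.0638. Gbp2 had 9.03, 4.86, 6.38 and 6.37 CPM in controls, 3.77, 5.20, 4.60 and 4.15 CPM at 12000 fibers and 5.48, 2.12, 3.53 and 7.02 CPM at 30000 fibers. It was called lower at 12000 fibers (log2 -0.59 ± 0.23, adjusted p = 0.0469). That call was lost when any of 8 libraries was left out: control mouse 1, 3 or 4, mouse 1, 3 or 4 at 12000 fibers, and mouse 1 or 3 at 30000 fibers, with adjusted p of 0.0524 to 0.165, and also with DESeq2, with summed transcripts or without mitochondrial genes (0.0501 to 0.0891). Gbp7 did not pass (log2 -0.16 ± 0.32, adjusted p = 0.736). All 3 genes are low in these cells and have near relatives in the same cluster on chromosome 3.

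With 30000 fibers against control, 3 of the 39 genes were higher and 22 lower, or 7.69% and 56.4%, beside 32.2% higher and 33.4% lower, or 65.6% in either direction, among all genes tested. The median log2 fold change was -0.54, against -0.03 over all genes. The 3 that rose were B2m, Ifi27 and Zc3hav1. Of the 16 antiviral effectors 2 rose and 8 fell, all 3 sensors fell, 4 of 5 modifiers fell, all 4 transcription factors fell and 1 of 3 guanylate-binding proteins fell. Of the 8 class I genes 1 rose and 2 fell. The 4 libraries at 30000 fibers did not overlap the controls for 19 of 39 genes, 3 above and 16 below, where 28.7% of all genes lay above and 29.4% below. These libraries differ from the controls in depth, mitochondrial share and 3′ weight, as given above, and no library at 30000 fibers is free of that.

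Class I genes parted from each other at 30000 fibers. B2m rose (log2 2.73 ± 0.12, adjusted p = 2.61e-12), with a mean of 1830 ± 110 against 277 ± 53.3 CPM in controls. Its transcript is 860 bases long, in the shortest length class, and with the median change of that class subtracted its log2 fold change was 1.84. H2-K1 (log2 0.15 ± 0.09, adjusted p = 0.152), H2-D1 (log2 -0.06 ± 0.09, adjusted p = 0.598) and Psmb8 (log2 -0.22 ± 0.13, adjusted p = 0.151) did not pass. H2-K1 passed as higher without control mouse 3 (log2 0.24, adjusted p = 0.0188), and was lower when all its transcripts were summed (log2 -0.28, adjusted p = 0.0127). Such a sum may hold a read of a shared exon more than once. Summing also made Psmb8 lower (log2 -0.48, adjusted p = 0.00168) and Psmb9 higher (log2 0.81, adjusted p = 0.00663), against log2 0.29 ± 0.25, adjusted p = 0.315 for the single transcript of Psmb9. Tap2 fell (log2 -0.81 ± 0.10, adjusted p = 5.19e-07) and so did Tapbp (log2 -0.37 ± 0.08, adjusted p = 0.000288), both with all 4 libraries below all 4 controls. The summed level of the 8 genes was 1223 to 1583 CPM in controls, 1607 to 2009 CPM at 12000 fibers and 2698 to 2956 CPM at 30000 fibers, where B2m made up most of it. The 16 antiviral effectors summed to 415 to 508 CPM in controls, 423 to 526 CPM at 12000 fibers and 397 to 445 CPM at 30000 fibers.

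Isg15, at 756 bases, and Bst2, at 792 bases, also have transcripts in the shortest class, and both were lower at 30000 fibers. Isg15 rests on 28 counts over the 4 libraries there. Isg15 fell at 30000 fibers (log2 -1.62 ± 0.33, adjusted p = 0.000252), with all 4 libraries below every other epithelial library. Bst2 fell (log2 -0.41 ± 0.13, adjusted p = 0.0104); the call was lost without mouse 2 at 30000 fibers (adjusted p = 0.0505) and with summed transcripts (log2 -0.24, adjusted p = 0.114). With the median change of their class subtracted, the log2 values were -2.51 for Isg15 and -1.30 for Bst2, and these were not tested. Oas1a (log2 -2.36 ± 0.57, adjusted p = 0.00133), Ifi44 (log2 -1.77 ± 0.43, adjusted p = 0.00283) and Oasl2 (log2 -0.85 ± 0.26, adjusted p = 0.0133) fell at both fiber numbers. Eif2ak2 (log2 -0.45 ± 0.09, adjusted p = 0.000264) and Adar (log2 -0.30 ± 0.07, adjusted p = 0.000658) also fell at 30000 fibers. With the median change of its length class subtracted, the log2 value of Adar was -0.08.

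Ifi27, a small mitochondrial membrane protein and common marker of interferon exposure, had 27.8, 21.1, 36 and 26.8 CPM in controls, 37.3, 26.4, 26.2 and 23.7 CPM at 12000 fibers and 38.4, 40.2, 48 and 45.1 CPM at 30000 fibers. It rose at 30000 fibers (log2 0.64 ± 0.17, adjusted p = 0.00401), but its log2 value was -0.25 once the median change of its length class was subtracted. Zc3hav1 rose by little (log2 0.22 ± 0.07, adjusted p = 0.00596), with a log2 value of 0.37 after the same subtraction. With summed transcripts neither passed, Ifi27 at a log2 of 0.30 (adjusted p = 0.12) and Zc3hav1 at 0.04 (adjusted p = 0.688). Ifit1 did not pass (log2 -0.76 ± 0.33, adjusted p = 0.059) and fell with the mouse as a block (log2 -0.75, adjusted p = 0.00584). Ifi35, a regulator that binds other interferon-induced proteins, did not pass (log2 -0.37 ± 0.17, adjusted p = 0.0584) and likewise fell with that block (log2 -0.36, adjusted p = 0.0481). Without the block Ifit1 was called lower without control mouse 2 or mouse 1 or 4 at 12000 fibers, with adjusted p of 0.0105 to 0.0395, and also with DESeq2 or in a fit of only these 2 groups (up to 0.0267). Ifi35 was called lower without control mouse 2, mouse 1 at 12000 fibers or mouse 4 at 30000 fibers, with adjusted p of 0.0135 to 0.0481, and with summed transcripts (log2 -0.56, adjusted p = 0.00458). Ifit3 did not pass (log2 -0.67 ± 0.38, adjusted p = 0.143) but was called lower without mouse 1 at 12000 fibers (adjusted p = 0.0392). Ifit2, Rsad2 and Mx2 did not pass, with log2 fold changes of -0.10, 0.24 and -0.33.

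All 3 sensors fell at 30000 fibers, and of the modifiers named here Usp18 alone did not pass. Among all genes tested 33.4% were called lower there. Ifih1 fell (log2 -0.74 ± 0.12, adjusted p = 2.59e-05), Ddx58 fell (log2 -0.35 ± 0.08, adjusted p = 0.000932) and Dhx58 fell (log2 -1.20 ± 0.30, adjusted p = 0.00186). The log2 value of Ddx58 was -0.22 with the length class subtracted, and that of Dhx58 was -1.80 without mouse 3 at 30000 fibers. Parp14, a modifier, fell (log2 -1.10 ± 0.08, adjusted p = 4.98e-10), with 53.3, 49, 52.7 and 58.8 CPM at 30000 fibers, against 118, 101, 120 and 121 CPM in controls. Parp9 (log2 -1.07 ± 0.16, adjusted p = 1.22e-05), Dtx3l (log2 -0.88 ± 0.10, adjusted p = 4.01e-07) and Trim25 (log2 -0.83 ± 0.07, adjusted p = 4.78e-09) fell too, each with all 4 libraries below all 4 controls. Usp18 did not pass (log2 -0.54 ± 0.26, adjusted p = 0.0699), and with the mouse as a block it fell (log2 -0.54, adjusted p = 0.0309). Without the block it was called lower without control mouse 2 or mouse 4 at 30000 fibers, with adjusted p of 0.0139 to 0.0166, and with summed transcripts (log2 -0.77, adjusted p = 0.0203).

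All 4 transcription factors fell at 30000 fibers, where 33.4% of all genes tested were called lower. Irf7 (log2 -1.06 ± 0.31, adjusted p = 0.00894) and Irf9 (log2 -0.61 ± 0.16, adjusted p = 0.00311) had the larger changes, Stat2 (log2 -0.54 ± 0.13, adjusted p = 0.000906) and Irf1 (log2 -0.40 ± 0.09, adjusted p = 0.000356) the smaller. With its transcript at the 3′ end Irf1 stood at a log2 of -0.87. Among the guanylate-binding proteins Gbp3 was called lower (log2 -0.82 ± 0.35, adjusted p = 0.0474), a call lost with the mouse as a block (log2 -0.80, adjusted p = 0.0545). It was also lost when any of 8 libraries was left out (control mouse 1, 3 or 4, mouse 3 or 4 at 12000 fibers, and mouse 1, 3 or 4 at 30000 fibers), with adjusted p of 0.0529 to 0.155, and with DESeq2, without the filter or with transcripts chosen in controls (0.0501 to 0.0692 over these and the block). Gbp2 did not pass (log2 -0.55 ± 0.28, adjusted p = 0.0911), and passed as lower without control mouse 2 or mouse 4 at 30000 fibers, with adjusted p of 0.0233 to 0.0378. Gbp7 did not pass (log2 -0.15 ± 0.39, adjusted p = 0.749). Summed fibroblast markers reached 14153 to 17115 CPM at 30000 fibers and 8587 to 13394 CPM in controls. Fn1 made up most of this sum, with means of 11215 CPM at 30000 fibers and 9131 CPM in controls. Against 12000 fibers, 6 of 14 tested fibroblast markers were called higher at 30000 fibers (42.9%, beside 28.3% of all genes). The other 8 did not pass, Fn1 among them, and the median log2 fold change of the 14 was 0.64. Immune markers summed to 345 to 523 CPM at 30000 fibers and 194 to 268 CPM in controls. Lyz2 made up most of that immune sum at 30000 fibers, and which cells carried it was not tested. Of the 5 immune markers 3 were called higher (60%, beside 32.2% of all genes). Cd14 alone was called lower (adjusted p = 0.000507), beside 33.4% of all genes, and Csf1r did not pass. Of the 10 epithelial markers 9 were called lower (90%, beside 33.4% of all genes). The 10 summed to 3714 to 4409 CPM at 30000 fibers and 6589 to 7636 CPM in controls. Their part in the falls was not tested.

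The 30000-fiber libraries were also set against the 12000-fiber libraries. Of the 39 genes 2 were higher and 19 lower (5.13% and 48.7%), beside 28.3% higher and 27.1% lower, or 55.4% in either direction, among all genes. The median was -0.32, against -0.01 over all genes, and 14 to 21 of the 39 were called lower with any 1 library left out. B2m (log2 1.98 ± 0.11, adjusted p = 1.72e-10) and Ifi27 (log2 0.59 ± 0.17, adjusted p = 0.0086) were the 2 that were higher. With the length class subtracted B2m stood at a log2 of 1.13 and Ifi27 at -0.27, and with summed transcripts Ifi27 did not pass (log2 0.29, adjusted p = 0.144). Of the class I genes 5 were lower. They were the peptide-loading genes Tap2 (log2 -1.01 ± 0.10, adjusted p = 3.8e-08) and Tapbp (log2 -0.46 ± 0.08, adjusted p = 4.39e-05), the subunit Psmb8 (log2 -0.63 ± 0.13, adjusted p = 0.0003), and the heavy chains H2-D1 (log2 -0.40 ± 0.09, adjusted p = 0.00105) and H2-K1 (log2 -0.27 ± 0.09, adjusted p = 0.0156). The H2-K1 call was lost without mouse 1 or 2 at 12000 fibers or mouse 2 at 30000 fibers, with adjusted p of 0.0577 to 0.06. With summed transcripts its log2 value was -0.69 and with the length class subtracted -0.42. Tap1 passed as lower without control mouse 1 or 3, mouse 4 at 12000 fibers or mouse 1 at 30000 fibers, with adjusted p of 0.0262 to 0.0484, and with summed transcripts (0.0226) or in a fit of only these 2 groups (0.031). Bst2 (log2 -0.84 ± 0.13, adjusted p = 1.82e-05) and Ifih1 (log2 -0.89 ± 0.12, adjusted p = 4.06e-06) were lower as well, and Bst2 stood at a log2 of -1.70 with the length class subtracted. Leaving out 1 library lost the call of Eif2ak2 (7 libraries), Stat2 (6), Ifit2 (3), Dhx58 (2) and Dtx3l (1). Eif2ak2 lost it in 5 other settings too, DESeq2 among them. Stat2, Ifit2 and Xaf1 lost it with summed transcripts, and Ddx58 with the transcript at the 3′ end. Irf9 passed as lower with DESeq2, and Irf1 with summed transcripts. Both comparisons with 30000 fibers use the same 4 libraries, and both comparisons with control use the same 4 controls, so their values are not independent.

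The isoforms of each gene were compared with each other at either fiber number. Of the members, 26 had at least 2 transcripts with a mean of 20 or more counts. Isoforms share exons, and no source used here states whether a read was counted for more than 1 of them, so they are not independent measurements. At 12000 fibers the median spread between the highest and lowest isoform was 0.19 on the log2 scale, and all isoforms had the same sign in 20 of 26 genes. At 30000 fibers the median spread was 0.835, and the sign was shared in 21 of 26. H2-K1 is the clearest case, with 16 transcripts. At 12000 fibers all 16 lay between 0.27 and 0.50, while at 30000 fibers they ran from -2.58 to 0.26. The 3 transcripts of H2-D1 lay between 0.29 and 0.35 at 12000 fibers and between -1.63 and -0.06 at 30000 fibers, and the 7 of Psmb8 between 0.20 and 0.53 at 12000 fibers and between -2.88 and -0.05 at 30000 fibers.

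Position along the gene went with that spread. Over the 26 genes, the 56 transcripts that end within 50 bases of the gene's last listed 3′ end had a median log2 ratio of -0.37 at 30000 fibers, and the 69 that end 500 or more bases before it had a median of -1.19. At 12000 fibers the same medians were 0.04 and -0.004. Xaf1, an interferon-induced protein that favours cell death, turned on this choice. Its main transcript, which ends 4965 bases before the last 3′ end, fell at 30000 fibers (log2 -0.97 ± 0.25, adjusted p = 0.00235), while a transcript that reaches that end was higher (log2 0.88, adjusted p = 0.0205). The sum over all 5 transcripts listed for Xaf1 did not pass (log2 -0.07, adjusted p = 0.822). The 9 transcripts of Ifi27 ran from -2.04 to 1.32 at 30000 fibers and from -0.08 to 0.07 at 12000 fibers. B2m, Isg15, Ifit1, Ifit3 and Oas1a have 1 listed transcript each, so no such check exists for them. The transcripts chosen for H2-K1, Psmb8, Psmb9, Tap1 and Xaf1 are annotated as retained-intron forms and share exons with the coding forms of their genes.

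**Figure D4:**
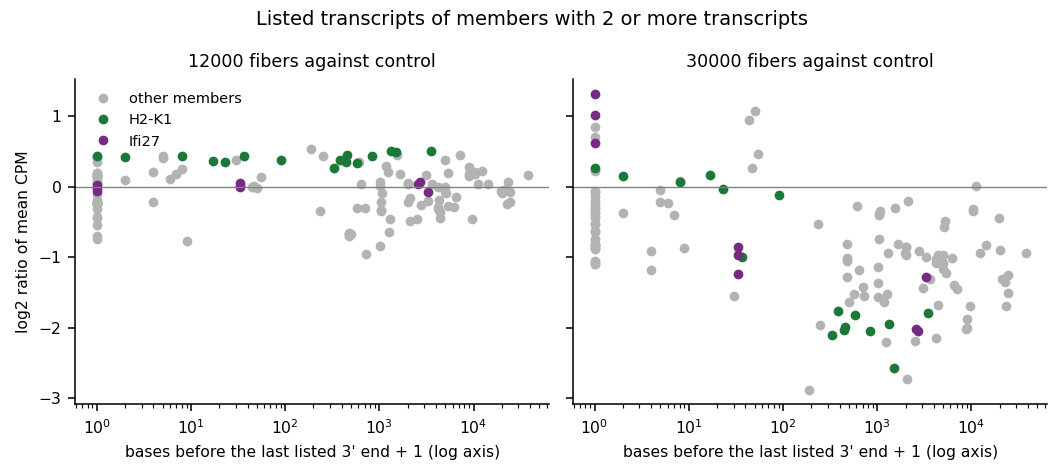
Log2 ratio of mean CPM of each listed transcript (members with at least 2), for 12000 fibers (left) and 30000 fibers (right) against control, by the distance of its 3′ end from the gene's last listed 3′ end plus 1 base (log axis). The 16 H2-K1 transcripts lie at 0.27 to 0.50 on the left and at -2.58 to 0.26 on the right.

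Levels per transcript length put 4 of the 8 class I genes first in controls. In RPKM (CPM divided by the length of the chosen transcript in kilobases), B2m had the highest control level of the 39, 322 ± 62, followed by H2-K1 with 199 ± 24.8 and H2-D1 with 182 ± 26.6 (SD, n = 4). The difference between H2-K1 and H2-D1 was not tested. Both were read in the same libraries, so the SD between mice does not measure it. Tapbp came next with 74.7 ± 2.07 RPKM. The other class I genes were lower, with 14.9 ± 0.969 RPKM for Tap2, 11.1 ± 0.753 for Psmb8, 7.58 ± 1.19 for Tap1 and 1.96 ± 0.520 for Psmb9. Among the other roles Bst2 had 41.2 ± 4.25 RPKM and Irf1 32.2 ± 3.17, and Gbp7 was lowest with 0.665 ± 0.276 RPKM.

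Genes of the pathway outside the 39 were read from lists of receptors, signal transducers, other induced genes and other class I genes. At 12000 fibers 2 of 6 receptor genes fell (33.3%), beside 19.3% of all genes tested. Ifngr1, the ligand-binding chain of the interferon gamma receptor, had 133, 121, 116 and 125 CPM in controls, 90.9, 83.8, 85.8 and 89.6 CPM at 12000 fibers and 70.9, 57.1, 74.8 and 60.8 CPM at 30000 fibers. It fell at 12000 fibers (log2 -0.50 ± 0.07, adjusted p = 1.82e-05) and at 30000 fibers (log2 -0.91 ± 0.08, adjusted p = 5.92e-09). Il10rb, shared by the interferon lambda receptor, was the other (log2 -0.27 ± 0.09, adjusted p = 0.0232). The type I receptor chains Ifnar1 (log2 -0.04 ± 0.07, adjusted p = 0.712) and Ifnar2 (log2 -0.03 ± 0.11, adjusted p = 0.835) did not pass. Neither did the signalling chain Ifngr2 (log2 0.05 ± 0.06, adjusted p = 0.566) or the interferon lambda receptor Ifnlr1 (log2 -0.09 ± 0.09, adjusted p = 0.456). At 30000 fibers all 6 fell, where 33.4% of all genes tested were called lower. The 6 log2 fold changes ran from -0.91 to -0.37.

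Of 15 tested signal transducers 5 fell at 12000 fibers (33.3%, beside 19.3% lower among all genes tested), with a median of -0.12. At 30000 fibers 7 fell and 2 rose (46.7% and 13.3%), beside 33.4% lower and 32.2% higher among all genes tested. The median of the 15 was -0.16 at 30000 fibers. Sting1, the adaptor of cytosolic DNA sensing, fell (log2 -1.05 ± 0.10, adjusted p = 1.53e-07), with 24.5, 23.4, 22.7 and 19.4 CPM at 12000 fibers, against 54.5, 42.7, 46.3 and 43.6 CPM in controls. The kinase Ikbke (log2 -0.41 ± 0.10, adjusted p = 0.00268) and the receptor Tlr3 (log2 -0.29 ± 0.09, adjusted p = 0.0191) also fell. The receptor kinases Jak2 (log2 -0.20 ± 0.09, adjusted p = 0.0776) and Tyk2 (log2 -0.05 ± 0.07, adjusted p = 0.601) did not pass at 12000 fibers and fell at 30000 fibers, with log2 fold changes of -0.85 and -0.49.

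**Figure D5:**
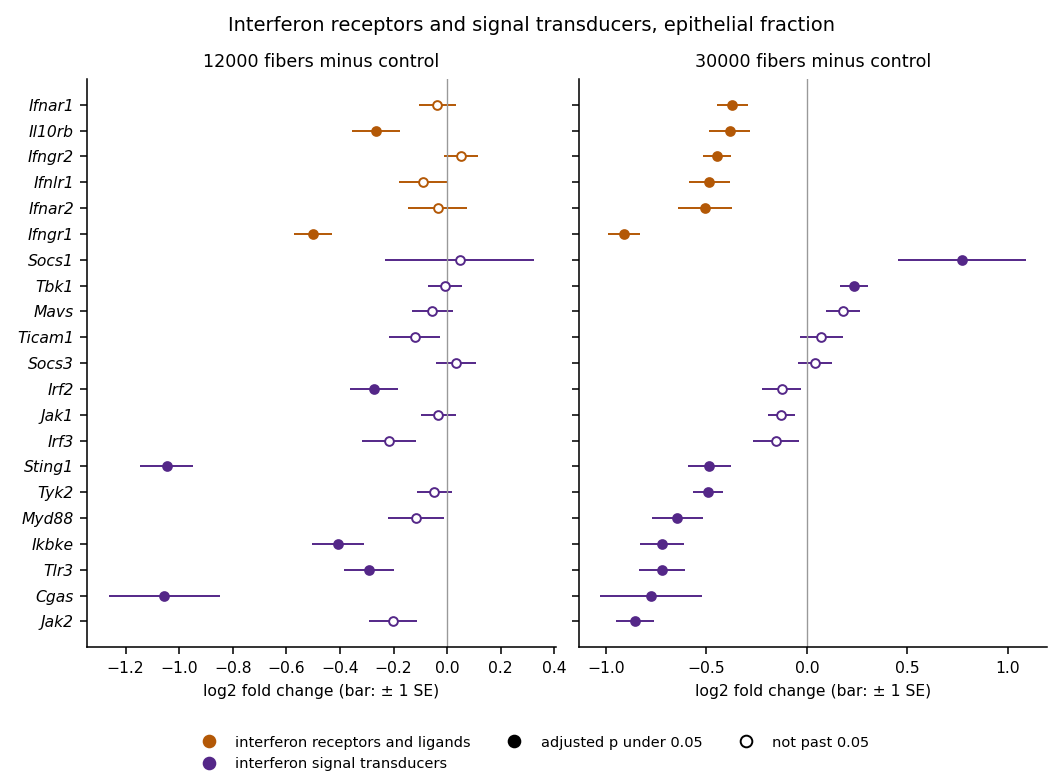
Log2 fold changes of 6 receptor genes and 15 signal transducers for 12000 fibers minus control (left) and 30000 fibers minus control (right); points are edgeR estimates, bars ± 1 SE, and filled points passed an adjusted p of 0.05. All 6 receptors lie below 0 at 30000 fibers, led by Ifngr1 at -0.91.

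Of 42 other interferon-induced genes 15 fell and 2 rose at 12000 fibers (35.7% and 4.76%), beside 19.3% lower and 18.7% higher among all genes tested. The median of the 42 was -0.14. The largest change belonged to Ifitm1, a membrane protein that hinders virus entry, with 66.6, 30.0, 34.5 and 40.4 CPM in controls, 1.70, 0.933, 1.53 and 2.68 CPM at 12000 fibers and 0.784, 0.706, 2.94 and 2.34 CPM at 30000 fibers. Ifitm1 fell at 12000 fibers (log2 -4.63 ± 0.35, adjusted p = 1.48e-06) and at 30000 fibers (log2 -4.57 ± 0.45, adjusted p = 2.73e-06), without overlap with the controls. Its relative Ifitm3, named after its values were seen, had 216, 126, 131 and 128 CPM in controls, 41.8, 27.7, 38.6 and 39.8 CPM at 12000 fibers and 112, 131, 155 and 125 CPM at 30000 fibers. It fell at 12000 fibers (log2 -2.01 ± 0.20, adjusted p = 2.65e-05) and did not pass at 30000 fibers (log2 -0.19 ± 0.20, adjusted p = 0.417). At 30000 fibers 17 of the 42 fell and 10 rose (40.5% and 23.8%), beside 33.4% lower and 32.2% higher among all genes tested. The median of the 42 was -0.19. Trim14, an adaptor of antiviral signalling, fell there (log2 -2.53 ± 0.30, adjusted p = 4.59e-07), and Znfx1, an RNA helicase, fell (log2 -0.63 ± 0.08, adjusted p = 5.86e-07). Ube2l6, the conjugating enzyme for Isg15, rose (log2 1.06 ± 0.12, adjusted p = 1.92e-07), as did Irgm1, a GTPase of pathogen defence (log2 0.94 ± 0.12, adjusted p = 1.3e-06).

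Of 17 other class I pathway genes 3 rose and 1 fell at 12000 fibers (17.6% and 5.88%), beside 18.7% higher and 19.3% lower among all genes tested. The median of the 17 was 0.20. H2-Q4, a non-classical class I heavy chain, had 72.6, 75.6, 90.7 and 83.5 CPM in controls, 104, 108, 102 and 103 CPM at 12000 fibers and 40.0, 27.9, 39.2 and 42.8 CPM at 30000 fibers. It rose at 12000 fibers (log2 0.37 ± 0.08, adjusted p = 0.00156) while it fell at 30000 fibers (log2 -1.10 ± 0.10, adjusted p = 1.32e-08). Nlrc5, the transactivator of class I promoters, had 4.40, 4.86, 8.60 and 4.45 CPM in controls, 11.3, 8.53, 12 and 6.97 CPM at 12000 fibers and 10.6, 11.6, 7.65 and 10.7 CPM at 30000 fibers. It rose at 12000 fibers (log2 0.83 ± 0.21, adjusted p = 0.00487) and at 30000 fibers (log2 0.87 ± 0.25, adjusted p = 0.00513), with ranges that overlapped the controls because control mouse 3 was high. At 30000 fibers 3 of the 17 rose and 7 fell (17.6% and 41.2%), beside 32.2% higher and 33.4% lower among all genes tested. The median of the 17 was -0.07. Psme2, a subunit of the proteasome activator, was among the falls (log2 -1.52 ± 0.19, adjusted p = 8.57e-07). The others named are the chaperones Pdia3 (log2 -0.52 ± 0.06, adjusted p = 2.11e-07) and Canx (log2 -0.38 ± 0.07, adjusted p = 7.63e-05) and the tapasin relative Tapbpl (log2 -0.59 ± 0.13, adjusted p = 0.000731).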

How the data were processed

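RNA was sequenced from 24 libraries, 12 of the epithelial and 12 of the fibroblast fraction. The submitters' processing notes list cutadapt 1.12, HISAT2 2.1.0, bcl2fastq, FastQC and the build mm10, without roles. The counting program, annotation release, strand setting and barcode use have no source here. The deposited values are raw counts per Ensembl transcript, whole numbers that the authors had not normalized. The 71081 transcripts cover 14557 gene symbols, and 70529 transcripts were found in GENCODE M21, which gave lengths, coordinates and types. Fibroblast columns hold 107814 entries, 36733 of them below the last identifier, with a Spearman rho of 0.0467 to the epithelial entries, so their identifiers were not used. 

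The members, lists and rule for named genes were chosen with earlier results of these data known. For each gene the transcript with the largest mean in the 12 epithelial libraries was used. TMM-scaled totals of the chosen transcripts ran from 2552480 to 11152925. edgeR 4.0.16 (R 4.3.3, limma 3.58.1) fitted all 12 libraries together with filterByExpr, TMM and a robust quasi-likelihood F test, 9 residual degrees of freedom, 13759 genes tested and Benjamini-Hochberg adjustment over all of them; an adjusted p under 0.05 was called. The procedure was tested on simulated data. SEs come from the fold change and its F statistic. The p-values measure the spread between 4 mice per group. Libraries with the same mouse number are labelled as the same mouse. Their deviations from the group means correlated by -0.028, 0.154, 0.037 and 0.182 for mice 1 to 4 between 12000 fibers and control. The highest correlation with a control of another mouse was 0.117, 0.030, 0.065 and 0.084, above the same-mouse value for mice 1 and 3. The mouse as a block was an alternative (6 residual degrees of freedom), given beside a result where it changed the call. The rule named 16 fixed genes, up to 3 members per role by smallest p in each comparison and up to 5 genes per pathway list, with Nlrc5; 1 gene of the signal transducer list is not reported here. Isoform ratios used mean CPM with a pseudocount of 0.1. The alternatives were DESeq2 1.42.0, RLE factors, no filter, summed or otherwise chosen transcripts, 2-group fits, mitochondrial genes left out, the length trend subtracted and each library left out.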

Additional observations from a re-analysis of the deposited data

Results flagged for a closer look

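In 12 of 117 groups of 4 libraries (39 genes at 3 fiber numbers), 1 library lay apart from the other 3 by more than Dixon's 95% critical share of the group's range, where chance flags about 1 in 20 groups. Mouse 1 at 12000 fibers was high for Isg15 (9.15 CPM, others 5.16 to 5.49), Ifi35 (15.2 CPM, others 11.0 to 11.6), Adar (99.0 CPM, others 87.5 to 89.0) and Tap1 (39.1 CPM, others 29.9 to 31.3), and mouse 2 at 12000 fibers was high for Ifih1 (56.1 CPM, others 50.0 to 50.8). Control mouse 2 was low for Usp18 (6.32 CPM, others 10.2 to 10.6), Parp14 (100.6 CPM, others 117.6 to 120.7) and Irf7 (12.0 CPM, others 18.8 to 19.6), and control mouse 4 was high for Ifit2 (15.5 CPM, others 9.49 to 10.5). At 30000 fibers, mouse 1 was high for Tap1 (32.5 CPM, others 24.7 to 25.4), mouse 3 was low for Tapbp (147 CPM, others 174 to 176) and mouse 4 was low for B2m (1666 CPM, others 1874 to 1907).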

How the results depend on the processing

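With edgeR's RLE factors, every one of the 39 genes kept its direction and its side of the threshold in all 3 comparisons. The median of all genes moved by less than 0.1 (log2) under every scaling tried. These scalings all take most genes as unchanged, so neither result can test that assumption. With all transcripts of a gene summed, which may count a read of a shared exon more than once, antiviral effectors called higher numbered 1 for 12000 fibers minus control, 0 for 30000 fibers minus control and 0 for 30000 minus 12000 fibers, antiviral effectors called lower numbered 3 for 30000 minus 12000 fibers, class I genes called higher numbered 2 for 30000 fibers minus control and 2 for 30000 minus 12000 fibers, and class I genes called lower numbered 4 for 30000 fibers minus control; H2-K1 turned to -0.28 for 30000 fibers minus control. With the transcript at the 3′ end, an alternative chosen after seeing the data, antiviral effectors called higher numbered 2 for 30000 minus 12000 fibers, and Xaf1 turned to 0.88 (30000 fibers minus control) and 0.78 (30000 minus 12000 fibers). With the length trend subtracted, Ifi27 turned to -0.25 and -0.27 in these comparisons, and 9 and 7 other members moved by more than 2 SE of their fold change. The cause was not tested. With 1 library left out, members called lower at 12000 fibers numbered 7 to 16, antiviral effectors called higher 1 to 3 and lower 3 to 7, and class I genes called higher at 30000 fibers 1 to 2. With the mouse as a replicate block, 15 members were called lower and 6 higher at 12000 fibers, 24 lower and 3 higher at 30000 fibers, and 19 lower and 2 higher for 30000 minus 12000 fibers; beyond the genes named with the block above it changed no other member's call. Genes with few reads, such as Oas1a and Gbp3, are limited by depth at 30000 fibers.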
